A study of Vitis vinifera with 60 samples.

Results

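A set of 8 NAC genes of the grapevine berry was followed through ripening. They were picked by locus tag as NAC genes of ripening, with earlier results of these data known. Counts of rising members below, set beside shares of all genes, are therefore descriptions and no test of the set. The members are VIT_19s0027g00230 (NAC33), VIT_08s0007g07670 (NAC60), VIT_08s0007g07640 (NAC61), VIT_00s0375g00040, VIT_19s0014g03290, VIT_01s0026g02710, VIT_02s0012g01040 and VIT_14s0108g01070. All 8 were found as rows of their own among the 29287 rows of the table. Each passed the filter on low values, which asked for a column mean no lower than 1 FPKM and left 18207 genes for testing. RNA of the pericarp, that is the berry with its seeds taken out, was sequenced in the red cultivars Sangiovese, Barbera, Negroamaro, Refosco and Primitivo, all from the same vineyard in 2011, at 4 stages: pea-sized berries, berries that had begun to touch, soft berries and berries ripe for harvest. Each of the 20 combinations has 3 biological replicates in the labels, which do not say whether they came from separate vines. The table holds the authors' mean FPKM of each, so that the spread of replicate berries is not known. Every ± below is the SD over the cultivars, all 5 unless a cultivar is named as left out. The labels name no treatment and no altered genotype.

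NAC proteins are a plant family of transcription factors with a conserved DNA-binding domain at the amino end and a variable regulatory tail, named after the founding genes NAM, ATAF and CUC. Several of them act in fruit ripening and leaf senescence; the tomato gene NOR, whose mutation leaves the fruit unripe, is a NAC gene. In grapevine, NAC33 is known to favour the end of the green phase of growth, including the breakdown of chlorophyll. NAC60 is known there as an activator of ripening and senescence genes, and NAC61 as a regulator of late ripening and of stress responses after it. The other 5 are called by their tags, because the table and the reference table of gene names do not pair them with names; the digits after VIT_ give the chromosome field, where 00 stands for unplaced sequence. For the same reason the labelled tissue was not checked against marker genes.

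The column labels bear on every value at harvest. For each cultivar, deviations from the mean of the 5 cultivars at the same stage were compared across the 18207 genes between the harvest column and the mean of the 3 earlier columns. The harvest columns of Sangiovese, Barbera and Refosco were most like their own earlier columns, with Pearson r of 0.501, 0.503 and 0.373. The harvest column labelled Negroamaro had r of 0.452 with earlier Primitivo and -0.0976 with earlier Negroamaro, and the one labelled Primitivo had r of 0.442 with earlier Negroamaro and -0.0873 with earlier Primitivo. These 2 columns go against their labels. They are given below as labelled, and some harvest results are also given with them exchanged or left out. Any harvest value given for Negroamaro or Primitivo alone would change with an exchange. Exchanging the 2 columns leaves every mean over the 5 cultivars as it is.

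The summed level of the 8 genes, as a mean over the 5 cultivars, was higher at each later stage, a sum that was not tested. It was 69.7 ± 13.1 FPKM when berries were pea-sized, 122 ± 25.3 when touching, 363 ± 44.0 when soft and 506 ± 215 at harvest (SD, n = 5 cultivars). The harvest sum ran from 348 FPKM in the column labelled Primitivo to 873 FPKM in Refosco. From soft berries to harvest Refosco went from 410 to 873 FPKM, Sangiovese from 343 to 402 and Barbera from 376 to 384. Soft Negroamaro had 388 FPKM and soft Primitivo 297, and the harvest columns with those labels had 523 and 348. With these 2 exchanged, Negroamaro would be lower in FPKM at harvest than in soft berries. As a share of the column total it would not be lower. The share was 0.0372% in soft Negroamaro and 0.0402% in the harvest column labelled Primitivo. Barbera, almost level in FPKM, went from a share of 0.0343% in soft berries to 0.0477% at harvest. These are levels in bulk pericarp, so a change in the number of cells of a type and a change in RNA per cell cannot be told apart.

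FPKM is scaled to transcript length, which allows a rough comparison of levels between genes. The annotation and any division of reads between similar genes are not known here, so narrow leads are uncertain. By FPKM VIT_19s0014g03290 was the most abundant of the 8 in all 20 columns. It held 42.4% to 60.6% of the summed level in pea-sized berries and 26.5% to 44.0% at harvest. Its lead over the next gene was narrowest in Sangiovese at harvest, 1.06-fold over VIT_00s0375g00040, and widest in pea-sized Barbera, 4.84-fold over VIT_01s0026g02710. The gene in second place changed with the stage. It was VIT_01s0026g02710 in all 5 cultivars in pea-sized and in touching berries, VIT_02s0012g01040 in 4 of 5 in soft berries, and VIT_00s0375g00040 in 4 of 5 at harvest; Barbera was the exception both times.

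**Figure D1:**
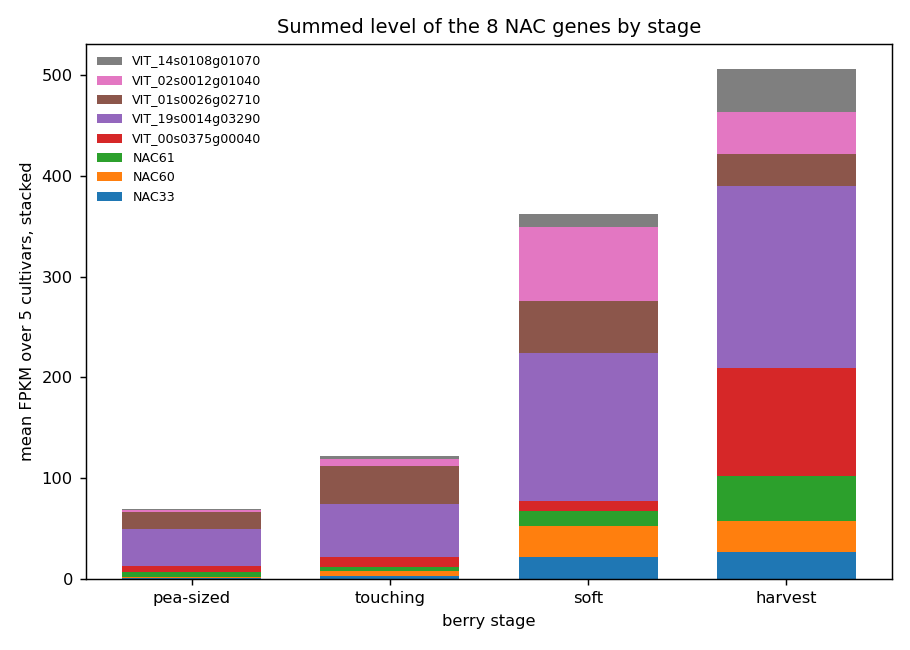
Stacked bars give the mean FPKM over 5 cultivars of each of the 8 NAC genes at each berry stage (vertical axis, linear from 0). The summed level stood at 69.7 FPKM at the first stage and 506 at the last, and VIT_19s0014g03290 was the largest segment at every stage.

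Softening was the step at which most of these genes moved. Between touching and soft berries 6 of the 8 rose and 0 fell, by limma with Benjamini-Hochberg adjusted p under 0.05 over all genes tested, where 13.9% of all genes tested were called higher and 41.5% lower. Each of the 6 rose by at least 1 on the log2(FPKM + 1) scale; 5.22% of all genes were both called higher and changed by that much. The 6 were NAC33, NAC60, NAC61, VIT_19s0014g03290, VIT_02s0012g01040 and VIT_14s0108g01070, and in each of them every soft column lay above every touching column, as 7.89% of all genes did. The median log2 change of the 8 was 1.70, against -0.26 for all genes tested. That general median moved to -0.04 with upper-quartile scaling, 0.07 with quantile normalization and -0.45 at equal total FPKM, and the same number of members, 6, was called under each.

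**Figure D2:**
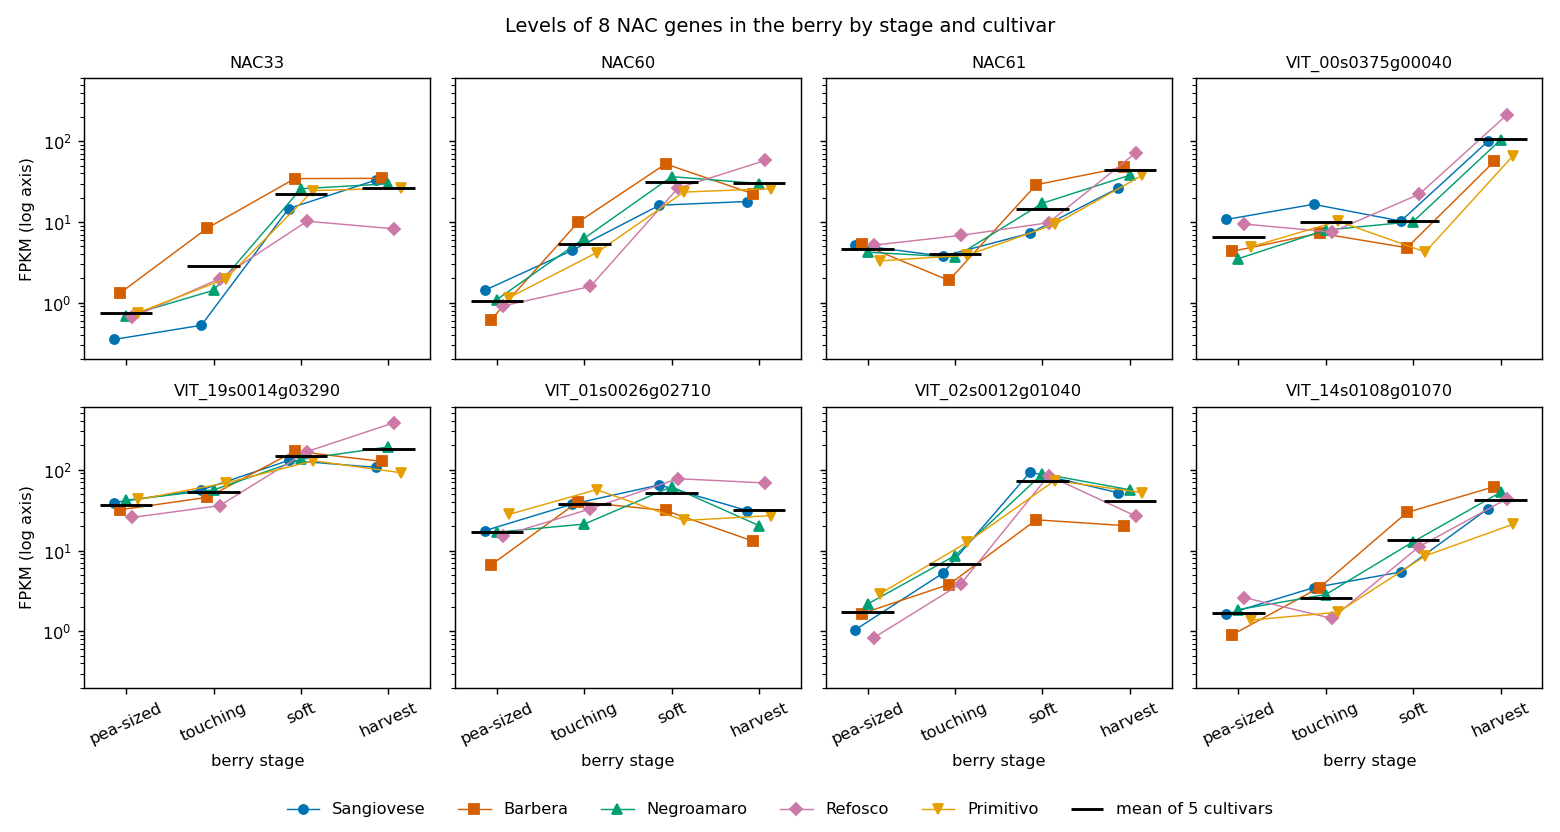
FPKM (log axis) of each of the 8 NAC genes at 4 berry stages; coloured symbols joined by lines are the 5 cultivars as labelled and black bars are their means. NAC33 went from a mean of 0.755 FPKM at the first stage to 26.5 at the last, while VIT_01s0026g02710 stayed between means of 16.9 and 51.8 FPKM.

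NAC33 had the lowest mean of the 8 in pea-sized berries. It stood there at 0.352 FPKM for Sangiovese, 1.32 for Barbera, 0.683 for Negroamaro, 0.663 for Refosco and 0.758 for Primitivo. Touching berries had 0.526, 8.43, 1.43, 1.99 and 1.99 FPKM in the same order of cultivars, and soft berries 14.7, 34.5, 25.8, 10.2 and 24.5 FPKM. Barbera was the highest at all of these stages, and its touching berries, 8.43 FPKM, came close to soft Refosco. At harvest the levels were 33.1 FPKM for Sangiovese, 34.8 for Barbera, 8.24 for Refosco, and 29.8 and 26.4 under the labels Negroamaro and Primitivo. Refosco was thus far below the other 4, and the harvest mean was 31.0 ± 3.72 FPKM without it against 26.5 ± 10.7 FPKM with it.

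The rise of NAC33 at softening amounted to 2.75 in log2 (SE 0.33), with a limma adjusted p of 7.71e-06 and 5 of 5 cultivars higher, or 7.64-fold between the mean FPKM values. It ranged from 4.09-fold in Barbera to 27.9-fold in Sangiovese. Before softening the log2 change was 0.87 (SE 0.33, adjusted p = 0.0719), higher in 5 of 5 cultivars but not past the threshold, and from soft to harvested berries it was 0.23 (SE 0.33, adjusted p = 0.620). The order of its stage means was harvest, soft, touching and pea-sized, and of the neighbours in that order only soft and touching berries differed past the threshold. The earlier step was called with a pseudocount of 0.1 (adjusted p = 0.0319) and with quantile normalization (adjusted p = 0.0272), in a range of 0.0272 to 0.328.

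NAC60 followed a similar course from a similarly low start. Pea-sized berries had 1.43 FPKM for Sangiovese, 0.613 for Barbera, 1.10 for Negroamaro, 0.915 for Refosco and 1.16 for Primitivo. In that order of cultivars it stood at 4.45, 9.97, 6.30, 1.59 and 4.17 FPKM in touching berries and at 16.1, 52.4, 36.5, 26.2 and 23.5 FPKM in soft ones. Every touching column was above every pea-sized column, as in 9.90% of all genes tested, with Refosco the lowest of the touching ones. At harvest it was at 18.0 FPKM for Sangiovese, 22.4 for Barbera and 57.9 for Refosco, and 30.0 and 25.9 FPKM under the labels Negroamaro and Primitivo.

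NAC60 rose at both early steps. Its log2 change was 1.49 from pea-sized to touching berries (SE 0.37, limma adjusted p = 0.00952) and 2.39 at softening (SE 0.37, adjusted p = 7.32e-05), higher in 5 of 5 cultivars each time. From soft berries to harvest it was -0.01 (SE 0.37, adjusted p = 0.984): Barbera went to 0.427 times its soft level and Refosco to 2.21 times. The early rise was no longer called without Barbera (adjusted p = 0.0537), without Negroamaro (0.0540) or with a pseudocount of 5 (0.0639), the highest of the 16 alternatives, whose lowest was 0.00210.

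NAC61 carries a tag close to that of NAC60, with 2 rows of the table between them, and differed from it in timing. In pea-sized berries it was at 5.24 FPKM for Sangiovese, 5.32 for Barbera, 4.23 for Negroamaro, 5.17 for Refosco and 3.31 for Primitivo, above NAC60 in all 5. Touching berries had 3.77, 1.89, 3.68, 6.84 and 3.88 FPKM in that order and soft berries 7.28, 29.0, 17.1, 9.80 and 9.37 FPKM, so that the lowest soft column, Sangiovese, lay only just above the highest touching one, Refosco. At harvest it reached 26.02 FPKM for Sangiovese, 47.7 for Barbera and 72.3 for Refosco, and 38.0 and 37.7 FPKM under the labels Negroamaro and Primitivo.

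NAC61 rose by 1.53 on the log2 scale at softening (SE 0.32, limma adjusted p = 0.000879) and by 1.64 from soft berries to harvest (SE 0.32, adjusted p = 0.00113), with 5 of 5 cultivars higher at each step. From pea-sized to touching berries the log2 change was -0.23 (SE 0.32, adjusted p = 0.647). Its softening change ranged from 1.43-fold in Refosco to 15.3-fold in Barbera, and its later change from 1.64-fold in Barbera to 7.37-fold in Refosco. At harvest it was higher than in soft berries in all 5 cultivars also with the 2 doubtful columns exchanged, and in 3 of 3 without them.

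The ratio of NAC61 to NAC60 shows the difference in timing within each column. NAC61 was 2.85 to 8.67 times as abundant as NAC60 in pea-sized berries and 0.374 to 0.553 times in soft berries, and at harvest 1.25 to 2.13 times. Touching berries spanned 0.190 in Barbera to 4.29 in Refosco, the only cultivar there with more NAC61 than NAC60. The mean log2 of the ratio of FPKM + 1 was 1.47 ± 0.37, -0.25 ± 1.26, -1.10 ± 0.19 and 0.55 ± 0.30 from the first stage to the last (SD, n = 5). Exchanging stages within cultivars gave an exact permutation test, two-sided, of the differences among the stages (p = 0.00174 over 331776 assignments, of which the smallest possible p is 3.01e-06). With Negroamaro and Primitivo left out the 3 other cultivars gave an exact permutation p of 0.0920. A single pair of neighbouring genes was tested in this way. The authors' estimate could divide reads between similar genes; whether these 2 share reads was not tested.

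**Figure D3:**
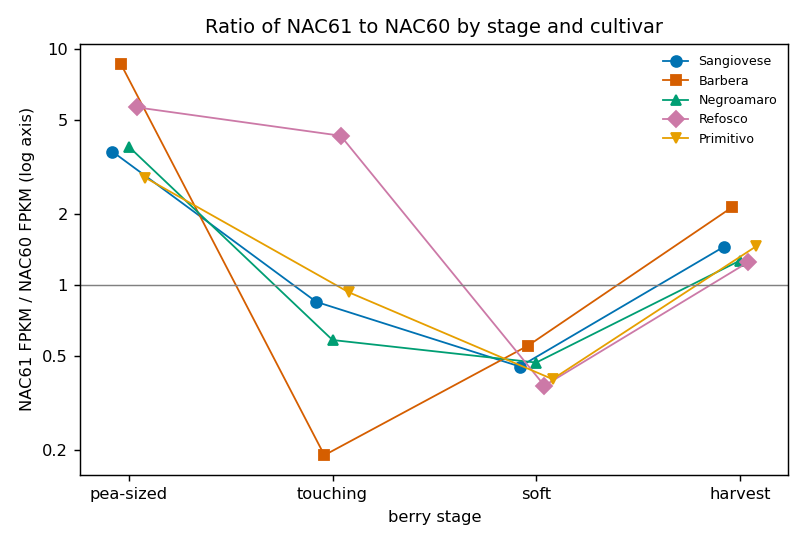
FPKM of NAC61 divided by that of NAC60 (log axis) at 4 berry stages, with a line for each cultivar as labelled; the grey line marks equal levels. All 5 cultivars lie above 1 in pea-sized and harvested berries and below 1, between 0.374 and 0.553, in soft berries.

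VIT_14s0108g01070 resembled NAC61 in rising at both late steps. It was at 1.62, 0.908, 1.86, 2.61 and 1.38 FPKM in pea-sized and at 3.46, 3.48, 2.85, 1.45 and 1.72 FPKM in touching berries of Sangiovese, Barbera, Negroamaro, Refosco and Primitivo. The groups overlap, and the log2 change between them was 0.41 (SE 0.31, limma adjusted p = 0.372). Soft berries had 5.43, 29.6, 12.8, 11.2 and 8.61 FPKM, highest in Barbera as for NAC61. At harvest Sangiovese had 33.1 FPKM, Barbera 61.9 FPKM and Refosco 43.5 FPKM, with 52.6 and 21.1 FPKM under the labels Negroamaro and Primitivo. It rose by 1.86 on the log2 scale at softening (SE 0.31, adjusted p = 0.000162) and by 1.69 to harvest (SE 0.31, adjusted p = 0.000798), in 5 of 5 cultivars each. Both were called under all 16 alternatives. As labelled, the change to harvest was 4.10-fold in Negroamaro and 2.45-fold in Primitivo. With the 2 doubtful columns exchanged these would be 1.64-fold and 6.11-fold.

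VIT_02s0012g01040 had the largest rise of the 8 at softening on the log2(FPKM + 1) scale. With a pseudocount of 0.1 it was 3.41, close to 3.31 for NAC33. In plain fold NAC33 rose more in Sangiovese (27.9 against 17.9), Negroamaro (18.1 against 10.3) and Primitivo (12.3 against 5.80). It rose less in Barbera (4.09 against 6.33) and Refosco (5.14 against 21.7). The plain folds use no pseudocount. Those of NAC33 start from low touching levels, 0.526 FPKM in Sangiovese, 1.43 in Negroamaro and 1.99 in Primitivo. The pea-sized levels of VIT_02s0012g01040 were 1.05 FPKM for Sangiovese, 1.65 for Barbera, 2.18 for Negroamaro, 0.832 for Refosco and 2.92 for Primitivo. Touching berries had 5.22, 3.80, 8.65, 3.90 and 12.7 FPKM and soft berries 93.5, 24.0, 89.2, 84.5 and 73.4 FPKM, and no 2 of these 3 stages overlapped. Barbera was the lowest of the soft columns by a wide margin. Harvested berries had 52.2 FPKM for Sangiovese, 20.4 for Barbera and 26.7 for Refosco, and 56.6 and 52.3 FPKM under the labels Negroamaro and Primitivo.

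Its log2 change was 1.46 from pea-sized to touching berries (SE 0.27, limma adjusted p = 0.00165) and 3.22 at softening (SE 0.27, adjusted p = 2.89e-07), higher in 5 of 5 cultivars, and both rises were called under all 16 alternatives. The soft stage was its peak in 5 of 5 cultivars. From there to harvest VIT_02s0012g01040 fell by 0.76 on the log2 scale (SE 0.27, adjusted p = 0.0389, lower in 5 of 5 cultivars). That fall was not called in 11 of the 16 alternatives, among them those without Sangiovese (adjusted p = 0.0748), Negroamaro (0.0988), Refosco (0.193) or Primitivo (0.0605) and the one without the 2 doubtful harvest columns (0.102), in a range of 0.0156 to 0.193.

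VIT_19s0014g03290, the most abundant of the 8, was already at 39.3 FPKM for Sangiovese, 32.0 for Barbera, 42.0 for Negroamaro, 25.7 for Refosco and 42.9 for Primitivo when berries were pea-sized. In touching berries it was at 56.3, 45.6, 56.3, 36.0 and 68.6 FPKM and in soft berries at 131, 169.9, 134, 168 and 129 FPKM. The soft columns stood close together and well above all the touching ones. At harvest Sangiovese had 107 FPKM, Barbera 127 FPKM and Refosco 384 FPKM, with 192 and 92.1 FPKM under the labels Negroamaro and Primitivo. It rose by 1.48 on the log2 scale at softening (SE 0.31), with 5 of 5 cultivars higher and a limma adjusted p of 0.00109. The log2 change to harvest was 0.10 (SE 0.31, adjusted p = 0.839), -0.17 without Refosco and -0.00057 without Negroamaro, and the harvest mean was 129.5 ± 44.1 FPKM without Refosco against 180.5 ± 120.2 FPKM with it.

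Of the 3 steps, VIT_00s0375g00040 was called only at that from soft berries to harvest. NAC61 and VIT_14s0108g01070 also peaked at harvest in 5 of 5 cultivars, but they rose at softening too. The levels below are those of VIT_00s0375g00040. Pea-sized berries had 10.7 FPKM for Sangiovese, 4.33 for Barbera, 3.52 for Negroamaro, 9.43 for Refosco and 4.92 for Primitivo. Touching berries were at 16.6, 7.27, 7.95, 7.51 and 10.2 FPKM and soft berries at 10.3, 4.80, 10.1, 22.1 and 4.26 FPKM, and these 3 stages overlapped. Every harvest column lay above every soft column, with 101 FPKM for Sangiovese, 56.6 for Barbera, 211 for Refosco, and 104 and 65.6 FPKM under the labels Negroamaro and Primitivo. It was the only one of the 8 for which that held, as it did for 4.67% of all genes tested.

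From soft berries to harvest VIT_00s0375g00040 rose by 3.32 on the log2 scale (SE 0.29), with 5 of 5 cultivars higher and a limma adjusted p of 4.36e-06, and the fold was between 9.55 in Refosco and 15.4 in Primitivo as labelled. With the 2 doubtful columns exchanged Negroamaro would have 6.48-fold and Primitivo 24.4-fold. Its log2 change was 0.57 from pea-sized to touching berries (SE 0.29, adjusted p = 0.182) and -0.10 at softening (SE 0.29, adjusted p = 0.796), where 2 of 5 cultivars were higher and 3 lower. The first of these was called without Refosco, at a log2 change of 0.78 (adjusted p = 0.0362; 0.0362 to 0.393 over the alternatives).

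VIT_01s0026g02710 was the one member with no change past the threshold over ripening as a whole. It was at 17.6, 6.60, 16.9, 15.3 and 28.0 FPKM in pea-sized and at 37.5, 40.3, 21.3, 32.9 and 56.7 FPKM in touching berries of Sangiovese, Barbera, Negroamaro, Refosco and Primitivo. Soft berries had 64.95, 31.4, 61.7, 77.6 and 23.6 FPKM, and the cultivars parted here: Sangiovese, Negroamaro and Refosco were higher than at the touching stage and Barbera and Primitivo lower. Harvested berries had 31.3 FPKM for Sangiovese, 13.1 for Barbera and 68.7 for Refosco, and 20.3 and 27.0 FPKM under the labels Negroamaro and Primitivo. All stages overlapped.

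It rose by 1.17 on the log2 scale from pea-sized to touching berries (SE 0.38), with 5 of 5 cultivars higher and a limma adjusted p of 0.0394. The rise was not called in 7 of the 16 alternatives, among them those without Sangiovese (adjusted p = 0.114), Barbera (0.217) or Refosco (0.0551), in a range of 0.0287 to 0.217. At softening its log2 change was 0.38 (SE 0.38, adjusted p = 0.420) and to harvest -0.75 (SE 0.38, adjusted p = 0.134). Without Primitivo the step to harvest was called, at -0.99 (adjusted p = 0.0448; 0.0448 to 0.380 over the alternatives). As labelled, 4 of 5 cultivars were lower at harvest than in soft berries, and with the 2 doubtful columns exchanged all 5 were.

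Counted by step, 3 of the 8 rose and 0 fell from pea-sized to touching berries, against 12.4% of all genes tested called higher and 10.5% called lower. These were NAC60, VIT_01s0026g02710 and VIT_02s0012g01040, and without Barbera the count was 1, VIT_02s0012g01040. From soft berries to harvest 3 rose, namely NAC61, VIT_00s0375g00040 and VIT_14s0108g01070, where 14.9% of all genes were called higher, and 1 fell, VIT_02s0012g01040, where 24.5% were called lower. The median log2 change of the 8 at these steps was 0.72 and 0.17, against 0.03 and -0.08 for all genes tested. Under equal total FPKM the medians of all genes were -0.10 and 0.12.

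**Figure D4:**
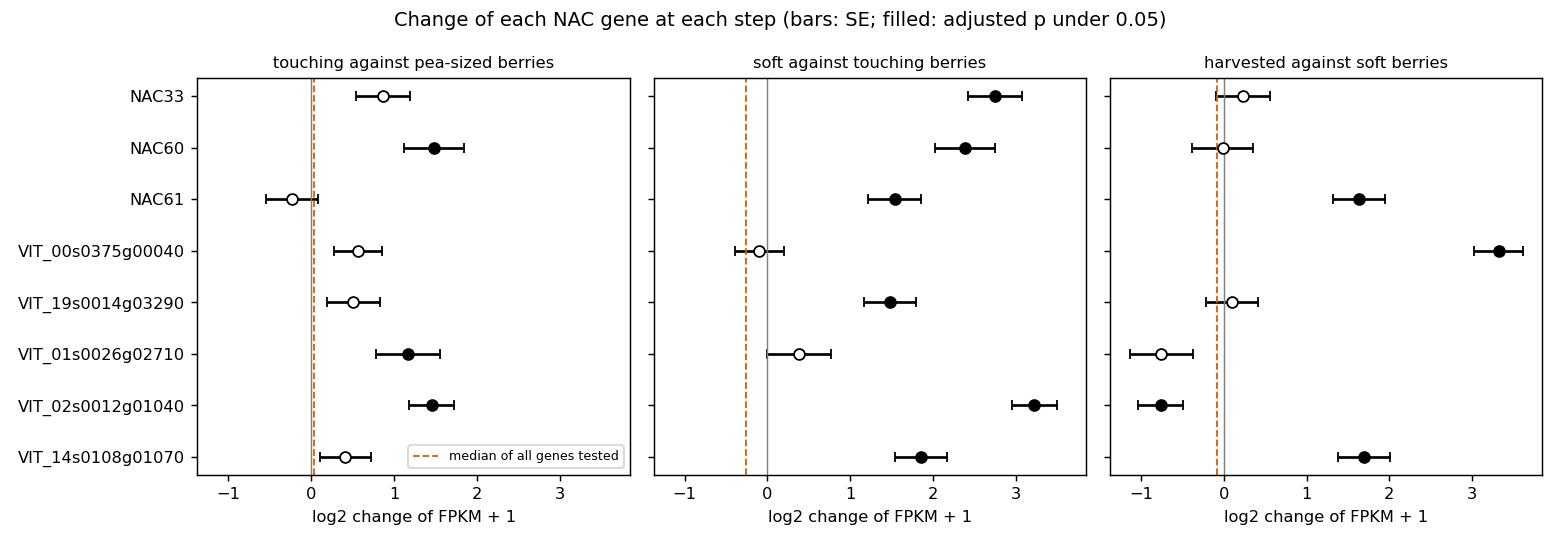
Log2 change of FPKM + 1 (horizontal axis) of each of the 8 NAC genes at 3 steps, with bars for the SE; filled circles have a limma adjusted p under 0.05 and the dashed line is the median of all 18207 genes tested. At softening 6 of the 8 are filled, between 1.48 and 3.22, and at harvest VIT_00s0375g00040 stands furthest right at 3.32.

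Over ripening as a whole, soft and harvested against pea-sized and touching berries, 7 of the 8 rose and 0 fell, where 23.5% of all genes tested were called higher and 51.2% lower. The log2 changes of the 7 ran from 1.79 (SE 0.22, limma adjusted p = 3.70e-06) for VIT_19s0014g03290 to 3.57 (SE 0.19, adjusted p = 5.11e-10) for VIT_02s0012g01040. NAC33 rose by 3.30 (SE 0.23) and NAC60 by 3.12 (SE 0.26). With a pseudocount of 0.1 NAC33 was ahead of VIT_02s0012g01040, at 4.10 against 3.97. VIT_01s0026g02710 had a change of 0.59 (SE 0.27, adjusted p = 0.0612), and it was called with upper-quartile scaling (0.84, adjusted p = 0.0120), quantile normalization (0.90, adjusted p = 0.00848) and without Primitivo (0.90, adjusted p = 0.00638), in a range of 0.00638 to 0.325. In 5 of the 8 all 10 later columns were above all 10 earlier ones, as in 4.73% of all genes tested. Harvested berries lay above pea-sized ones in every column for 7 of the 8, as for 16.2% of all genes; VIT_01s0026g02710 overlapped. NAC33 missed the stricter count through Refosco at harvest, 8.24 FPKM, against touching Barbera, 8.43 FPKM.

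Whether the softening step was larger than the harvest step was tested within the same fit. It was larger for VIT_02s0012g01040, by 3.98 on the log2 scale (SE 0.47, limma adjusted p = 4.21e-05), for NAC33, by 2.52 (SE 0.57, adjusted p = 0.00503), and for NAC60, by 2.40 (SE 0.63, adjusted p = 0.0122). These are 3 of the 8, where 8.15% of all genes were called in this direction. The harvest step was the larger one for VIT_00s0375g00040, with a difference of -3.42 (SE 0.51, adjusted p = 0.000257), a direction called for 18.2% of all genes. NAC61, at -0.10 (SE 0.55, adjusted p = 0.917), and VIT_14s0108g01070, at 0.16 (SE 0.54, adjusted p = 0.861), did not pass the threshold in either direction. VIT_19s0014g03290, at 1.38 (SE 0.55, adjusted p = 0.0764), was called without Refosco (1.48, adjusted p = 0.0135) and with upper-quartile scaling (adjusted p = 0.0399), in a range of 0.0135 to 0.251. NAC60 was not called without Negroamaro (adjusted p = 0.0558; 0.00509 to 0.0558 over the alternatives).

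VIT_02s0012g01040 was the 1 of the 8 called by the moderated F test over cultivars (limma adjusted p = 0.0411), averaged over stages, where 16.3% of all genes were called, a share near that of the members. With the 2 doubtful harvest columns exchanged 2 of the 8 were called against 28.7% of all genes, and with them left out 0 of the 8 against 24.6%. It was lower in Barbera than in the mean of the others by 0.90 on the log2 scale (SE 0.24, adjusted p = 0.0451), in 3 of 4 stages, where 2.90% of all genes were called lower in Barbera. That was the 1 call among 40 contrasts of a member and a cultivar. Calls in either direction made up 8.34% of all genes for Sangiovese, 5.27% for Barbera, 2.11% for Negroamaro, 8.41% for Refosco and 1.70% for Primitivo. With the 2 columns exchanged these shares were 12.1%, 8.89%, 9.64%, 12.1% and 10.4%, and with them left out 11.8%, 8.41%, 7.16%, 11.2% and 6.85%. The F test call was lost without Sangiovese (adjusted p = 0.0593), Barbera (0.108), Negroamaro (0.0933), Refosco (0.0551) or Primitivo (0.0946), with the 2 doubtful columns left out (0.0786) and in 5 further alternatives, in a range of 0.0251 to 0.108, and the contrast was lost in 9 of its 14 alternatives. Stages served as repeats here, so the p-values speak of these vines and this season.

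NAC33 was above the stage mean in Barbera at 4 of 4 stages and below it in Refosco at 4 of 4. NAC33 lay close to that mean in pea-sized and touching Refosco, with log2 deviations of -0.056 and -0.076. It lay well below it in soft and harvested Refosco, at -0.917 and -1.43. Its difference between Barbera and the others, 1.02 on the log2 scale (SE 0.29, limma adjusted p = 0.0563), was past the threshold with the 2 doubtful columns exchanged (adjusted p = 0.0404) and at equal total FPKM (adjusted p = 0.0484; 0.0404 to 0.0832 over its alternatives). VIT_00s0375g00040 was below the stage mean in Barbera at 4 of 4 stages and above it in Refosco at 3 of 4, with an F test adjusted p of 0.0505, and of 0.0399 with the columns exchanged, 0.0484 at equal total FPKM and 0.0476 with quantile normalization, in a range of 0.0399 to 0.153.

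Single columns departed further than these averages. Harvested Refosco was the highest of the 5 for NAC60, NAC61, VIT_00s0375g00040, VIT_19s0014g03290 and VIT_01s0026g02710, and the lowest for NAC33. Soft Barbera was the highest for NAC33, NAC60, NAC61 and VIT_14s0108g01070, and the lowest for VIT_02s0012g01040. For VIT_19s0014g03290 it was the highest only narrowly, at 169.9 FPKM against 168 in Refosco. These orders are descriptions, with 1 value for each cultivar and stage.

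**Figure D5:**
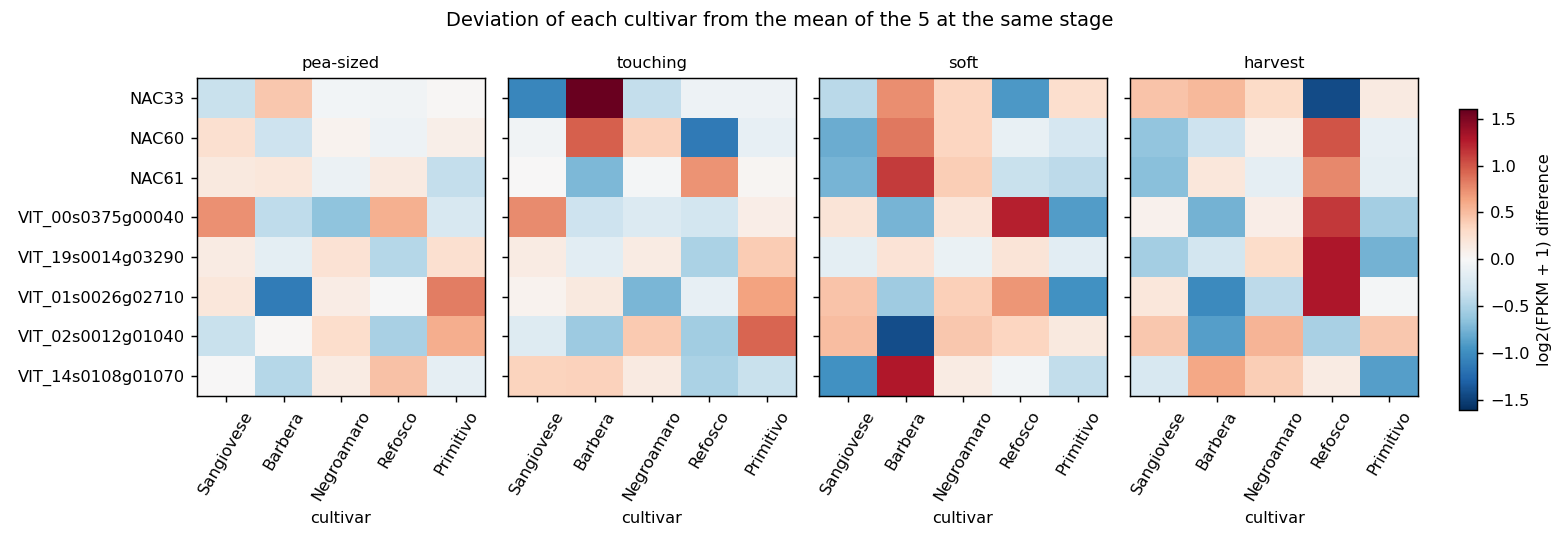
Colour gives the difference of each cultivar, as labelled, from the mean of the 5 cultivars at the same stage, in log2(FPKM + 1) units, for the 8 NAC genes (rows) and 5 cultivars (columns) at 4 stages (panels). Harvested Refosco is red in 5 rows by 0.77 or more and blue for NAC33 at -1.43; soft Barbera is blue for VIT_02s0012g01040 at -1.42.

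Across the 20 columns the members varied together to different degrees, which is a description, since the columns share stages. Pearson r of log2(FPKM + 1) was highest for NAC60 with VIT_19s0014g03290, at 0.930, for NAC61 with VIT_14s0108g01070, at 0.924, and for NAC33 with NAC60, at 0.886. It was over 0.7 in 16 of the 28 pairs and lowest for NAC61 with VIT_01s0026g02710, at 0.0976. When each value was taken as a deviation from its stage mean, the median r of the 28 pairs was 0.0961 instead of 0.752. NAC33 with NAC60 then had r of 0.0781, NAC33 with VIT_00s0375g00040 had -0.710, and NAC60 with VIT_14s0108g01070 had 0.614.

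The genes outside the set with the most similar course were also found by Pearson r over the 20 columns. For NAC33 these were VIT_08s0040g01950, at 0.959, with means of 6.02 FPKM in pea-sized and 280.2 FPKM in soft berries, and VIT_07s0005g00750, at 0.958. VIT_05s0077g01100, at 0.983, and VIT_16s0050g00390, at 0.967, were nearest to NAC60. NAC61 had VIT_14s0066g01710, at 0.954, and VIT_07s0031g00660, at 0.950. Nearest to VIT_02s0012g01040 were VIT_14s0066g01340, at 0.973, and VIT_07s0005g01710, at 0.969. VIT_14s0108g01070 had VIT_04s0023g02510 and VIT_11s0052g00030, at 0.974 and 0.973, and VIT_19s0014g03290 had VIT_17s0000g09130 and VIT_12s0028g01050, at 0.959 and 0.955. VIT_00s0375g00040 had VIT_16s0098g01020, at 0.954, and VIT_17s0000g03850, at 0.938. VIT_01s0026g02710 had no gene above 0.812, the value of VIT_01s0011g01510, followed by VIT_00s0291g00080 at 0.797. Genes with r over 0.9 numbered 432 for VIT_14s0108g01070, 236 for NAC60, 169 for NAC33 and 30 for VIT_00s0375g00040, so the nearest genes are few among many.

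The rows next to the members by tag number were also followed over ripening. Within 3 places on either side lay 43 other rows, of which 32 were tested. Over ripening 5 of the 32 rose, 15.6%, and 20 fell, 62.5%, with a median log2 change of -0.46; over all genes tested these values were 23.5%, 51.2% and -0.30. The 5 were VIT_19s0027g00210 near NAC33, VIT_19s0014g03300 beside VIT_19s0014g03290, VIT_02s0012g01010 near VIT_02s0012g01040, and VIT_14s0108g01050 and VIT_14s0108g01060 near VIT_14s0108g01070. Of the 2 rows between NAC61 and NAC60, VIT_08s0007g07650 was listed at 0 in all columns and VIT_08s0007g07660 stood at 67.3 FPKM in pea-sized and 95.2 FPKM in harvested berries, with a ripening change of 0.18 on the log2 scale (limma adjusted p = 0.122).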

How the data were processed

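The deposited table holds FPKM, fragments scaled to transcript length and library size, as the authors' means of 3 libraries per cultivar and stage, per the file headers, which give no replicate. RNA came from about 400 mg of pericarp, and 2.5 µg of it went into non-directional libraries, per the labels' protocols, so antisense reads count toward a gene. TopHat2 2.0.6 and Cufflinks 2.0.2 are listed, with no roles, per the submitters' processing notes; the sources used here give no build or annotation. Column totals ran from 787405 to 1096120 FPKM; read depth is unknown. None of the tags matched the reference table (0), so no sequence, marker or other NAC list was used.

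Tests used R 4.3.3 and limma 3.58.1 on log2(FPKM + 1), a scale that understates changes of low genes, for the 18207 genes whose mean reached 1 FPKM. The model had stage and cultivar as terms, which left 12 residual degrees of freedom; the prior variance followed mean expression, and p-values were adjusted by Benjamini-Hochberg over all genes. The cultivar is the unit of replication for stages. The fit was tested on simulated data. The members, lists and alternatives were chosen with earlier results of these data known. The genes named are the 8 members, for each the 2 genes of highest Pearson r, and rows within 3 places by tag. The alternatives tried were a pseudocount of 0.1 or 5, the filter dropped or raised to 5 FPKM, 3 scalings, robust hyperparameters, no cultivar term, each cultivar left out, and the 2 doubtful harvest columns exchanged or left out. Python 3.11.15 with numpy, pandas, scipy and matplotlib did the rest.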

Additional observations from a re-analysis of the deposited data

Results flagged for a closer look

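In the 32 sets of 5 cultivars, 1 set for each gene and stage, 2 held a value far from the others on the log2(FPKM + 1) scale. Chance gives about 1 set in 20, a share near that of 2 in 32. NAC33 (VIT_19s0027g00230) in harvested Refosco stood at 8.24 FPKM, with a gap to the next cultivar of 0.803 of the whole range. VIT_02s0012g01040 in soft Barbera stood at 24.0 FPKM, with a gap of 0.820 of the range. The critical value for 5 cultivars is 0.710. The spread of replicate berries behind both values is unknown, so their causes were not tested.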

How the results depend on the processing

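Of 640 repeats of the 40 stage contrasts of single members, 587 had the same direction and side of the threshold, 22 lost a call, 9 gained one and 22 changed sign, the last all in contrasts that were not called. The count of members called at softening was 6 under all 16 alternatives. Counts for touching against pea-sized berries ran from 1 to 3 when a cultivar was left out. For the F test over cultivars, 0 members were called with a pseudocount of 5, no filter, upper-quartile scaling or the doubtful columns left out, 0 to 0 with a cultivar left out, and 2 with the columns exchanged, while the share of all genes called went from 16.3% to 5.27% without Sangiovese and to 28.7% with the exchange; at an unadjusted p under 0.05 the limma count was 2 to 4 in these. For single cultivars against the others 0 were called with a pseudocount of 0.1, no filter, upper-quartile scaling, quantile normalization or those columns left out, 2 with them exchanged and 0 to 2 without a cultivar; the unadjusted count was 5 to 9. The change of the NAC61 to NAC60 log2 ratio from pea-sized to soft berries, -2.57, was -2.75 without Negroamaro and Primitivo, where 3 cultivars gave an exact permutation p of 0.0920. Sign changes of the difference between the softening and harvest steps were, for NAC61, 0.039 with a pseudocount of 0.1, 0.082 with upper-quartile scaling and 0.31 with quantile normalization, and -0.80 to 0.45 without a cultivar; for VIT_14s0108g01070, -0.23 with a pseudocount of 5 and -0.28 at equal total FPKM, and -0.23 to 0.67 without a cultivar. For VIT_00s0375g00040 at softening the change was 0.14 with upper-quartile scaling, 0.33 with quantile normalization and -0.48 to 0.15 without a cultivar. For NAC60 at harvest it was 0.015, 0.031 and 0.23 under those scalings and equal total FPKM, 0.050 without the doubtful columns and -0.30 to 0.28 without a cultivar, and for VIT_19s0014g03290 at harvest -0.17 to 0.25. The causes were not tested. No paired analysis was possible by replicate number, because the columns are means and carry none; the cultivar was the block in the stage fits, and without it 2 members were called for touching against pea-sized berries and 6 at softening. Without counts, depth sets no interval here.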
